A study of Sus scrofa with 10 samples.

Results

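The insulin-like growth factor (IGF) system of the pig ovary was described through 10 genes, which code for the ligands IGF1 and IGF2, the receptors IGF1R and IGF2R, and the binding proteins IGFBP2 to IGFBP7. The genes were taken by symbol from the 19972 protein-coding loci of a table of 43499 loci. Of the 10 genes, 9 were found by symbol, and for IGF2 the locus listed as ENSSSCG00000035293 was used, whose description in the table reads insulin like growth factor 2. All 10 passed the limit for testing, a mean FPKM (a fragment count scaled to transcript length and library depth) of at least 0.1 over all pigs, as did 15170 protein-coding loci in all.

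In the ovary, IGF1 and IGF2 act together with the gonadotrophins on the growth and steroid production of granulosa and theca cells. Both ligands signal through IGF1R, a tyrosine kinase receptor, whereas IGF2R takes up IGF2 for breakdown in lysosomes and also carries mannose 6-phosphate-tagged enzymes. The IGFBPs hold the ligands in the tissue fluid and are themselves cut by proteases, PAPPA among them, which sets the ligand free. IGFBP7 is a distant relative that binds the IGFs only weakly.

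Ovaries came from 10 gilts of 1 genetic background, of which 5 formed the control group and 5 the rpFSH group, and each pig had its own library. From 210 days of age all of them ate altrenogest, an orally active progestin that suppresses oestrus, for 18 days (20 mg daily) and then went 2 days without it. The rpFSH treatment group was then injected with 1000 IU per pig of recombinant pig follicle-stimulating hormone made in CHO cells, and the control group with saline. The ovaries were collected at 234 days of age without their surface follicles, so the samples hold the rest of the ovary. The treatment field of the labels spells the hormone fpFSH and calls the control pigs untreated. The labels name poly(A) selection, whereas the study's methods name the removal of rRNA.

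Total counts lay between 64873797 and 75114003 per pig, so that 3 counts, taken as the floor, came to 0.0399 to 0.0462 CPM (counts scaled to the library total). Markers of granulosa (6 of 8 found in the table), theca (2 of 3), oocyte (7 of 8), stroma (7 of 7) and endothelium (7 of 7) had a summed FPKM above 3 in all pigs for each cell type, and no found marker was at the floor in every pig. FOXL2, HSD17B1, LHCGR and NLRP5 were among those not matched. Of the marker loci found, 7 hold more than 1 gene, 2 of them granulosa loci (AMH with SF3A2, INHBA with GLI3). Their FPKM may include the other gene. The pigs differed in their make-up. The theca sum ran from 3.47 in rpFSH 3 to 222 in control 3, and the granulosa sum from 6.40 in control 2 to 170 in control 4. The stroma sum ran from 499 in rpFSH 3 to 2284 in rpFSH 2. The summed FPKM of 6 luteal or steroidogenic markers, which include STAR and CYP11A1, was 3083 in control 2, 1781 in rpFSH 1 and 480 in rpFSH 4, and between 18.3 and 71.9 in the other pigs. The sum of 6 found markers of ciliated epithelium was 19.4 in control 2 and 41.3 in control 5, and between 2.39 and 4.29 elsewhere. The 7 smooth muscle or pericyte markers summed to 1831 in control 5 and to between 149 and 573 in the others. Of 58 markers tested, 7 (12.1%, beside 4.73% of all loci) had P under 0.05 in edgeR, all lower in the rpFSH group. These were the stroma gene LUM, the cilium genes FOXJ1, DNAH5, RSPH1 and TEKT1, and the epithelial keratins KRT8 and KRT18. LUM was 1 of 7 stroma markers tested, and the median log2 change of these 7 was above 0, at 0.27. For FOXJ1, RSPH1, TEKT1 and KRT18 the rpFSH mean was below the limit of 0.1 FPKM. They reached it through control 2 and control 5 (FOXJ1 at 5.82 and 14.1 FPKM), so a call of them could only be lower. Without the 2 control pigs high in ciliated markers, the log2 changes of RSPH1 (0.71), KRT8 (0.25) and KRT18 (0.62) lay above 0, with P above 0.05. These pigs were chosen by a sum that holds RSPH1 and were also the highest in KRT8 and KRT18. An upward shift therefore follows from the choice. With limma 2 markers had P under 0.05, beside 3.03% of all loci. Without the 3 pigs high in luteal markers none had it in edgeR, beside 3.14% of all loci. Without control 2 alone, 12 markers had it, among them 5 luteal ones, all 5 higher in the rpFSH group. The share of all loci in that fit is not given here. Control 2 had the highest luteal sum, and rpFSH 1 and rpFSH 4 were the highest of the pigs left. The sums of rpFSH 2, 3 and 5, from 35.0 to 46.2, lay within the range of the other controls.

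Of the 10 genes, 1 had P under 0.05 between the groups in edgeR's quasi-likelihood test, and it was lower in the rpFSH group. Among all 15170 loci tested, 4.73% had P under 0.05, made up of 3.21% lower and 1.52% higher in the rpFSH group. With limma 1 of the 10 genes passed beside 3.03% of all loci, and with DESeq2 2 passed, IGF1R and IGFBP5, beside 6.04%. No locus reached an adjusted p under 0.05 with edgeR, where the smallest was 0.981, or with limma, whereas DESeq2 called 86 loci (0.567%), none of them an IGF gene. In edgeR the adjusted p of the 10 genes was 0.997 for IGF1R and 1 for the others after rounding. The median log2 change of the 10 genes was 0.14, beside -0.01 over all loci tested. The groups overlapped in all 10 genes. Non-overlapping groups were found in 0.626% of all loci tested.

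**Figure D1:**
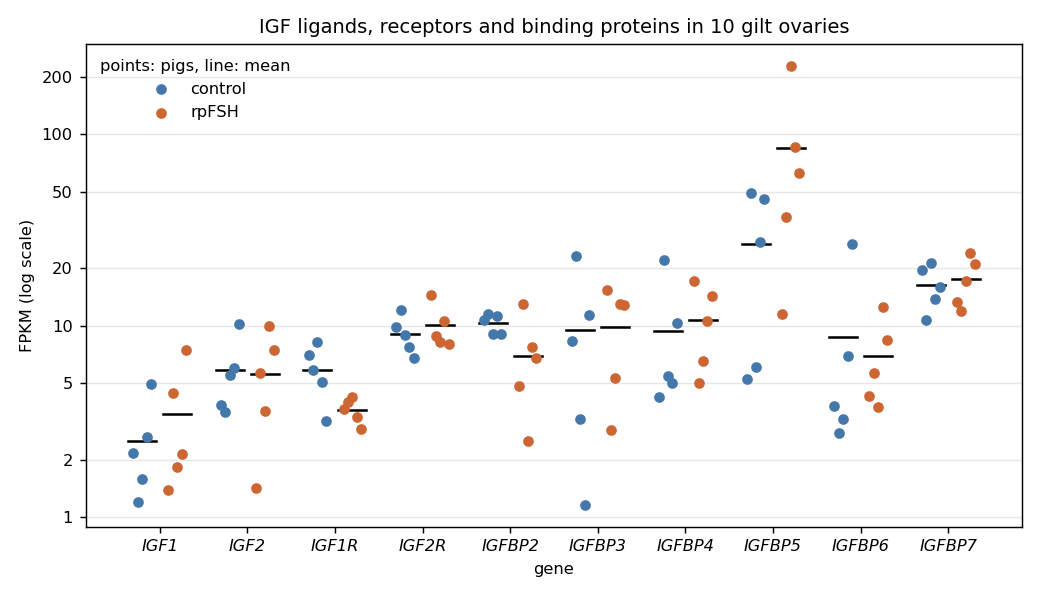
FPKM of the 10 IGF genes in each pig on a log scale, with control pigs in blue, rpFSH pigs in orange, and the group mean as a black line. The rpFSH values of IGF1R lie between 2.88 and 4.27 below 4 of the 5 control values, and the widest range is that of IGFBP5, from 5.29 to 228 FPKM.

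Both ligands were expressed in every pig, with a mean FPKM above that of 53.7% (IGF1) and 78.7% (IGF2) of the loci tested, and neither passed the test between the groups. IGF1 lies on chromosome 5 of Sscrofa11.1, from 81776422 to 81848048 on the plus strand. Its FPKM in control 1 to 5 was 2.15, 1.20, 1.58, 2.63 and 4.97, and in rpFSH 1 to 5 it was 1.39, 4.45, 1.83, 2.13 and 7.44. The highest pig of each group, control 5 and rpFSH 5, stood above most pigs of the other group, and 3 of the 5 rpFSH pigs were below the control median. The group means were 2.51 ± 1.48 and 3.45 ± 2.53 FPKM (SD, n = 5 each). Relative to the controls, IGF1 differed by a log2 change of 0.55 ± 0.51 (SE), with an edgeR P of 0.302 and an exact permutation p of 0.556.

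IGF2, the fetal-type ligand that theca cells are known to make in many mammals, lies on chromosome 2 from 1469104 to 1485616 on the minus strand. Its FPKM was 3.87, 3.54, 5.57, 6.04 and 10.3 in the control pigs and 1.42, 5.66, 3.59, 9.99 and 7.46 in the rpFSH pigs. The lowest value, in rpFSH 1, and the highest but 1, in rpFSH 4, both belonged to the rpFSH group. The group means were 5.86 ± 2.68 and 5.63 ± 3.33 FPKM (SD, n = 5 each). A log2 change of 0.02 ± 0.46 (SE) was found, with a 95% interval from -1.0 to 1.04, an edgeR P of 0.961 and an exact permutation p of 0.730, and its sign changed with the scaling and the pigs used. The ratio of IGF1 to IGF2 FPKM was 0.42 ± 0.11 among controls and 0.70 ± 0.33 among rpFSH pigs (SD, n = 5 each), and the pigs ranged from 0.213 to 0.998.

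IGF1R was the gene that passed the unadjusted threshold. It lies on chromosome 1 from 137383765 to 137691058 on the minus strand. Its FPKM in control 1 to 5 was 7.01, 5.86, 8.24, 5.07 and 3.20, and in rpFSH 1 to 5 it was 3.68, 4.01, 4.27, 3.35 and 2.88. All 5 rpFSH pigs were below the control median, and control 5 alone among the control pigs fell within the rpFSH range. The group means were 5.88 ± 1.92 and 3.64 ± 0.55 FPKM (SD, n = 5 each). The log2 change was -0.63 ± 0.26 (SE), with a 95% interval from -1.20 to -0.06, an edgeR P of 0.0344, an adjusted p of 0.997 and an exact permutation p of 0.0476. In bulk tissue, fewer cells of a type and less RNA per cell cannot be told apart. The exact permutation tests here and below are two-sided, on log2 FPKM and over all 252 assignments of the pigs to the groups, where the smallest possible p is 0.00794.

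In edgeR with other size factors, other filters and the fit over all loci, and in limma and DESeq2, P for IGF1R stayed under 0.05. It moved above 0.05 when control 1, control 3, rpFSH 1, rpFSH 4 or rpFSH 5 was left out, and the log2 change without control 3 was the weakest of these, -0.45. Without control 5, the pig within the rpFSH range, it was -0.79. The adjusted p was between 0.550 and 1 over the 22 fits of the gene. Without the 2 control pigs high in ciliated markers the log2 change was -0.82 and P was under 0.05 (adjusted p = 0.671). Without the 3 pigs high in luteal markers it was -0.57 and P was above 0.05.

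The table gives 1 count for the whole IGF1R locus, and the ratio of count to FPKM gives a length of 104746 bases behind it, which is 34.1% of the span of the locus. Of its 9 transcripts, 7 carry only a name given by the assembly of these reads. The value therefore sums more sequence than the receptor mRNA, and reads from exons and introns cannot be told apart in it. A separate unannotated locus of the same strand inside IGF1R, MSTRG.1775 at 137658392 to 137683654, was also lower in the rpFSH group, at 1.22 ± 0.36 FPKM against 1.99 ± 0.52 (SD, n = 5 each). Its log2 change was -0.68 ± 0.23 (SE) in the edgeR fit over all 36339 loci, where P was under 0.05 and the adjusted p was 0.848.

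IGF2R, on chromosome 1 from 7368103 to 7472548 on the minus strand, varied least of the 10 genes, with a coefficient of variation of 24.3% over all pigs. Its FPKM was 9.85, 12.0, 8.96, 7.71 and 6.75 in the control pigs and 14.5, 8.85, 8.18, 10.6 and 8.03 in the rpFSH pigs. The 3 highest pigs were rpFSH 1, control 2 and rpFSH 4, which are the 3 pigs with the highest luteal marker sums. IGF2R differed by a log2 change of 0.21 ± 0.21 (SE), with an edgeR P of 0.334 and an exact permutation p of 0.540. Without the 3 pigs high in luteal markers it was 0.10 ± 0.16 (SE). The ratio of IGF2R to IGF1R FPKM was 1.64 ± 0.44 among controls and 2.81 ± 0.81 among rpFSH pigs (SD, n = 5 each), from 1.09 to 2.11 and from 1.92 to 3.95.

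**Figure D2:**
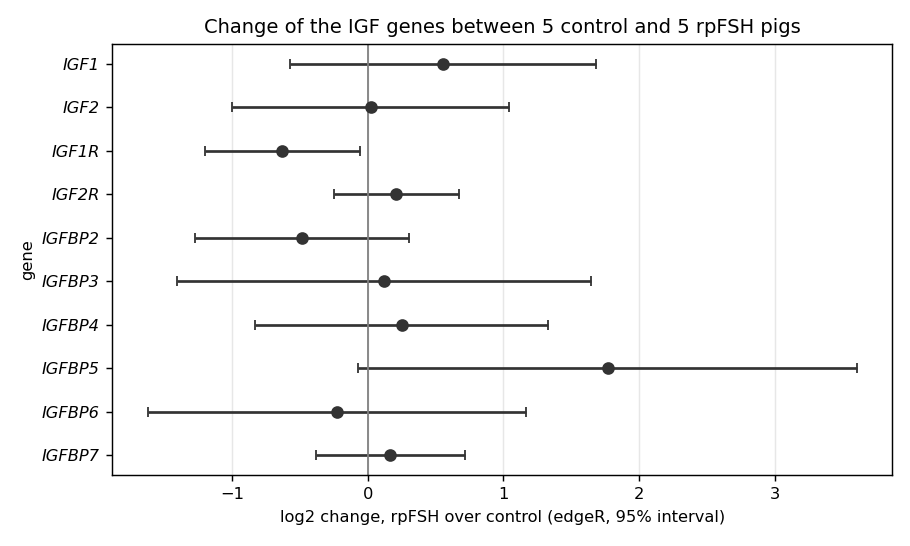
Log2 change from control to rpFSH of each IGF gene (points) with the 95% interval of edgeR (bars), 5 pigs per group. The interval of IGF1R, from -1.20 to -0.06, is the one that leaves out 0, and that of IGFBP5, from -0.07 to 3.60, is the widest.

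IGFBP5, which binds to extracellular matrix and bone mineral as well as to the IGFs, had both the highest mean level and the widest spread of the family. It lies on chromosome 15 from 118840677 to 118878593 on the minus strand. Its FPKM in control 1 to 5 was 5.29, 49.4, 6.13, 27.3 and 46.0, and in rpFSH 1 to 5 it was 11.6, 37.0, 228, 85.7 and 62.7. The pigs rpFSH 3, 4 and 5 were above all control pigs, and rpFSH 1 lay below all controls but the 2 lowest. The group means were 26.8 ± 21.0 and 84.9 ± 84.4 FPKM (SD, n = 5 each). The log2 change was 1.77 ± 0.83 (SE), with a 95% interval from -0.07 to 3.60, an edgeR P of 0.0576 and an exact permutation p of 0.143.

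The IGFBP5 value depended on single pigs. Its highest pig, rpFSH 3, had the lowest theca and stroma marker sums, and their part in the value was not tested. Without rpFSH 3 the log2 change was 0.96, the smallest with any pig left out. Without rpFSH 1 it was 2.05 and without control 2 it was 2.11, and P was under 0.05 in edgeR in both cases. DESeq2 on all pigs also gave P under 0.05, with an adjusted p of 0.560. Leaving out the 2 control pigs high in ciliated markers gave 2.82, and leaving out the 3 pigs high in luteal markers gave 2.47. P was under 0.05 in both of these fits, with an adjusted p of 0.695 and 0.996. Without the pigs high in luteal markers IGFBP5 was the 1 gene of the 10 with P under 0.05, beside 3.14% of all loci.

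IGFBP2 lies beside IGFBP5 on chromosome 15, from 118822009 to 118852036 on the plus strand, and the 2 loci overlap on opposite strands. Its FPKM was 10.7, 11.5, 9.04, 11.2 and 9.02 in the control pigs, a narrow range, and 4.84, 12.9, 2.50, 7.75 and 6.83 in the rpFSH pigs. All rpFSH pigs but rpFSH 2 were below all control pigs. The means were 10.3 ± 1.19 and 6.97 ± 3.89 FPKM (SD, n = 5 each). IGFBP2 differed by a log2 change of -0.48 ± 0.36 (SE), with an edgeR P of 0.203 and an exact permutation p of 0.0794. Without rpFSH 2 the change was -0.86 and P was under 0.05 in edgeR.

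IGFBP2 was lowest in rpFSH 3, the pig in which IGFBP5 was highest. The library protocol of the methods keeps strand, but whether the counts used it is not stated in the sources used here. Reads from the shared stretch of the 2 loci may therefore be split between them in a way that was not tested.

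IGFBP3, the main carrier of IGFs in blood, lies on chromosome 18 from 50000101 to 50035762 on the plus strand. Its FPKM was 8.33, 23.2, 3.27, 1.16 and 11.4 in the control pigs and 15.3, 2.86, 5.34, 12.9 and 12.9 in the rpFSH pigs. Control pigs held both the highest and the lowest value. Between the groups the log2 change was 0.12 ± 0.69 (SE), with an edgeR P of 0.864 and an exact permutation p of 0.635, and its sign turned when control 3, control 4 or rpFSH 1 was left out. It was 0.30 ± 0.78 (SE) without the 3 pigs high in luteal markers and 1.28 ± 0.69 (SE) without the 2 control pigs high in ciliated markers, with P above 0.05 in both fits.

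IGFBP4, a ligand-blocking carrier that PAPPA cuts in growing follicles, lies on chromosome 12 from 21928105 to 21981087 on the minus strand. Its FPKM was 4.27, 22.0, 5.46, 5.06 and 10.3 in the control pigs and 17.2, 5.01, 6.57, 10.6 and 14.3 in the rpFSH pigs. The highest pigs were control 2 and rpFSH 1, followed by rpFSH 5 and rpFSH 4. IGFBP4 differed by a log2 change of 0.25 ± 0.49 (SE), with an edgeR P of 0.617 and an exact permutation p of 0.563. Without the 2 control pigs high in ciliated markers, 1 of which is control 2, it was 1.18 with P under 0.05 (adjusted p = 0.690), and without the 3 pigs high in luteal markers it was 0.54 ± 0.43 (SE) with P above 0.05. The fit without the 2 control pigs gave P under 0.05 to 3 of the 10 genes, IGF1R, IGFBP4 and IGFBP5, and to 6.82% of all loci.

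**Figure D3:**
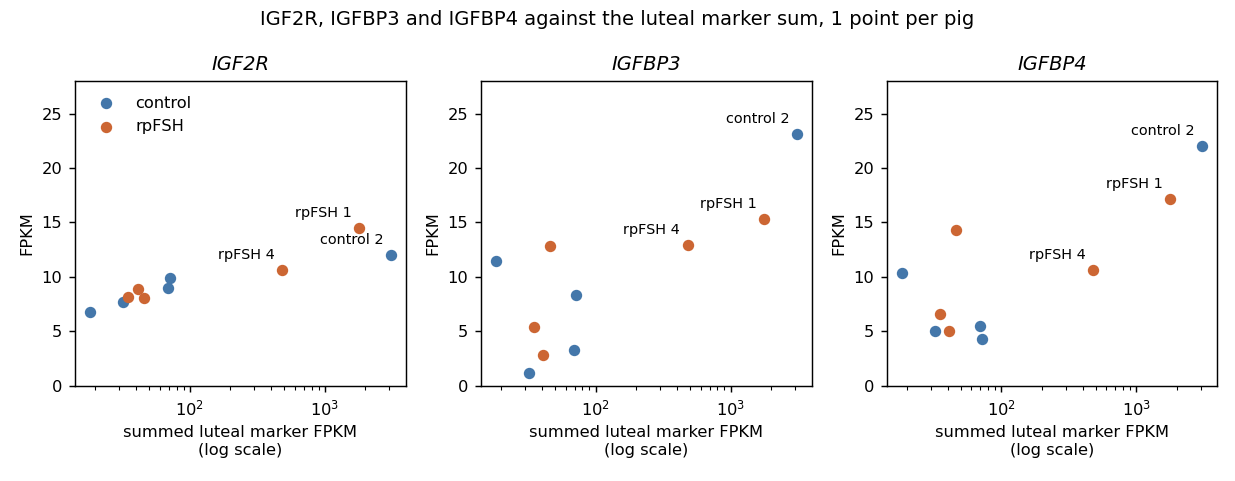
FPKM of IGF2R, IGFBP3 and IGFBP4 in each pig against the summed FPKM of 6 luteal or steroidogenic markers on a log scale. The labelled pigs, with sums of 480 to 3083, hold the 3 highest IGF2R values, between 10.6 and 14.5, whereas pigs with sums up to 71.9 reach 9.85.

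The 3 pigs with high luteal sums also held the highest IGFBP3 values, 23.2, 15.3 and 12.9, with rpFSH 5 close to the last of them at 12.9. For IGFBP4 they were 3 of the 4 highest pigs. Because these pigs stood apart from the rest, no correlation with the sum was calculated, and the part of luteal tissue in the values was not tested.

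IGFBP6, which prefers IGF2 to IGF1, lies on chromosome 5 from 18352307 to 18357225 on the plus strand. Its FPKM was 3.80, 2.76, 3.27, 6.94 and 26.9 in the control pigs and 4.30, 5.69, 3.77, 12.6 and 8.42 in the rpFSH pigs. Control 5, the pig with the highest smooth muscle and ciliated marker sums, stood far above the rest. Of the rpFSH pigs, 4 were above the control median of 3.80. With all pigs the log2 change was -0.23 ± 0.63 (SE), with an edgeR P of 0.725 and an exact permutation p of 0.873, and without control 5 it was 0.78 with P above 0.05. It was also above 0, at 0.07 and 0.12, with limma at a pseudocount of 1 and 0.1.

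IGFBP7 lies on chromosome 8 from 56270862 to 56357881 on the minus strand. Its FPKM was 19.5, 10.8, 21.2, 13.8 and 16.0 in the control pigs and 13.3, 12.0, 17.2, 24.1 and 20.9 in the rpFSH pigs. The values of both groups covered the same range, with a coefficient of variation of 26.4%. IGFBP7 differed by a log2 change of 0.17 ± 0.25 (SE), with a 95% interval from -0.38 to 0.72, an edgeR P of 0.514 and an exact permutation p of 0.698.

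The make-up of the binding proteins differed widely among pigs of both groups. IGFBP5 was the most abundant IGFBP per length in 3 control pigs and 4 rpFSH pigs, IGFBP7 in the control pigs 1 and 3, and IGFBP4 in rpFSH 1. IGFBP5 made up 28.9 ± 16.0% of the summed IGFBP FPKM among controls and 51.7 ± 24.6% among rpFSH pigs (SD, n = 5 each), and 86.5% in rpFSH 3. The sum itself was 81.0 ± 35.9 FPKM (SD, n = 5) among controls, from 48.4 to 120 FPKM, and 137 ± 79.1 (SD, n = 5) among rpFSH pigs, from 66.5 to 263 FPKM. The sum of the 2 ligands was 8.36 ± 4.10 and 9.07 ± 4.92 FPKM (SD, n = 5 each). Summed binding protein over summed ligand FPKM was 11.2 ± 7.86 and 20.2 ± 17.1, and the lowest value was 6.77. With a neighbouring locus that the table also names IGF1, described last, added to the ligands, the lowest value was 4.09. These ratios are given as a description, with no test.

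**Figure D4:**
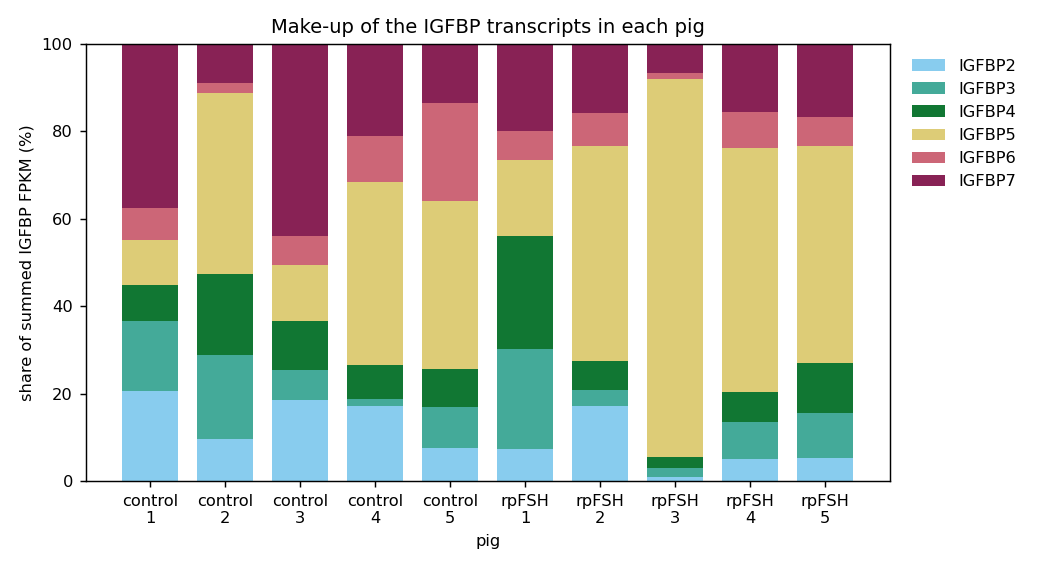
Share of each IGFBP in the summed FPKM of IGFBP2 to IGFBP7, in percent, 1 bar per pig. The share of IGFBP5 runs from 10.2% in control 1 to 86.5% in rpFSH 3, and IGFBP7 leads in controls 1 and 3.

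The order of mean FPKM over the 10 pigs was IGFBP5 (55.9), IGFBP7 (16.9), IGFBP4 (10.1), IGFBP3 (9.67), IGF2R (9.55), IGFBP2 (8.63), IGFBP6 (7.84), IGF2 (5.74), IGF1R (4.76) and IGF1 (2.98). None of the 9 neighbouring pairs differed within pigs at an adjusted p under 0.05 in an exact sign-flip test on log2 FPKM. IGFBP7 was above IGFBP4 in 8 of 10 pigs (exact p = 0.0234, adjusted p = 0.211). The place of IGF1R depends on the 104746 bases by which its counts are divided. The places of the other genes depend on their lengths in the same way, such as 28769 bases for IGFBP7 and 1432 for IGFBP3. IGFBP5 was higher in mean FPKM than 99% of the loci tested, and its coefficient of variation of 117% was above that of 93.6% of them. IGFBP6 (93.4%), IGFBP3 (70.5%), IGF1 (67.7%) and IGFBP4 (60.1%) followed, and IGF2 (49.7%), IGFBP2 (37.4%) and IGF1R (37.4%) varied less.

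Pairs of the 10 genes were compared for levels that go together over the 10 pigs, on log2 CPM. Of the 45 pairs, 23 had a positive and 22 a negative Pearson r. No pair reached an adjusted p under 0.05 in 100000 permutations, by Pearson's r or by Spearman's rho, and 7 had an unadjusted Pearson p under 0.05. The closest pair was IGFBP3 and IGFBP4, with r = 0.80 (permutation p = 0.00557, adjusted p = 0.251) and rho = 0.88 (permutation p = 0.00167, adjusted p = 0.0751). Without the 2 pigs farthest from the median of IGFBP3, r was 0.83, and it was 0.73 within the control group and 0.95 within the rpFSH group. IGF1R and IGFBP6 went in opposite directions, with r = -0.75 (permutation p = 0.0120, adjusted p = 0.271), rho = -0.84 (permutation p = 0.00368, adjusted p = 0.0828) and r = -0.76 without 2 pigs.

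The other 5 pairs with an unadjusted permutation p under 0.05 all held a ligand. IGF2 and IGF2R had r = -0.72 (rho = -0.52), and IGF1 and IGF2R had r = -0.65 (rho = -0.65). IGF2 and IGFBP6 had r = 0.70 (rho = 0.81), IGF1 and IGFBP6 had r = 0.65 (rho = 0.76), and the ligands themselves had r = 0.63 (rho = 0.79). In the same order, the permutation p of r was 0.0200, 0.0420, 0.0250, 0.0396 and 0.0486, and the adjusted p was 0.281, 0.313, 0.281, 0.313 and 0.313. Without the 2 pigs farthest from the median of the first gene, r was -0.80, -0.86, 0.88, 0.86 and 0.68. In both pairs with IGFBP6 this choice kept control 5, the pig highest in IGFBP6, so its part in r was not checked. For IGF2R and IGFBP6, where control 5 and rpFSH 1 were the 2 left out, r went from -0.59 to -0.25. Over the 7 pigs left without the 3 high in luteal markers, 5 of the 45 pairs had an unadjusted permutation p under 0.05 and none an adjusted p under 0.05. IGFBP3 and IGFBP4 then had r = 0.64 (permutation p = 0.123), and the strongest pairs were IGF2R with IGFBP6 (r = -0.88), IGF2 with IGFBP6 (r = 0.85) and IGF1 with IGF1R (r = -0.85), each with an adjusted p of 0.221 by permutation. IGF1R and IGFBP6 had r = -0.80.

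**Figure D5:**
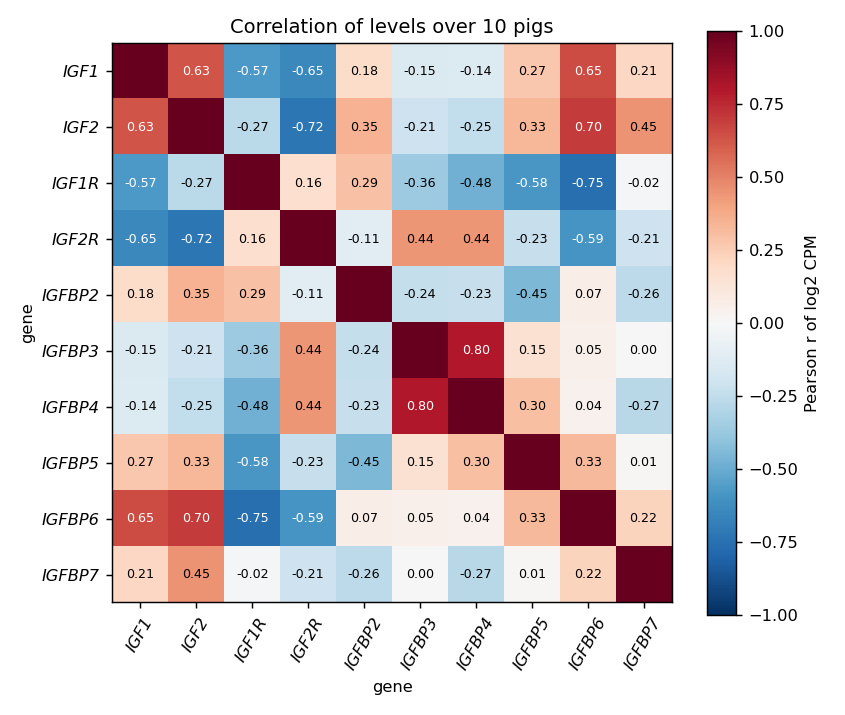
Pearson r of log2 CPM over 10 pigs for each pair of IGF genes, from blue (-1) to red (1). The strongest positive pair is IGFBP3 with IGFBP4 (0.80) and the strongest negative pair is IGF1R with IGFBP6 (-0.75).

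For each gene, the loci with the most similar pattern were named among 10443 other protein-coding loci with a symbol and a mean FPKM of at least 1, by Pearson r of log2 CPM over the 10 pigs and with no p. The highest of 10443 values of r over 10 pigs are high by selection alone. How high they would be by chance was not tested, so the lists do not show regulation in common. IGF1 was closest to PLOD2 (r = 0.93), which hydroxylates collagen lysines, followed by RCN1 (0.92) and CARS (0.91). IGF2 was closest to PIK3C2B (0.89), a PI3-kinase of another class than the IGF1R effector, then NME6 (0.88) and LRRC57 (0.88). IGF1R was closest to ANKRD28 (0.90), C8H4orf32 (0.90) and ACTR10 (0.89). IGF2R was closest to MAN2A2 (0.96), a Golgi enzyme of N-glycan trimming, SAT1 (0.95) and the sialyltransferase ST8SIA5 (0.94).

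Among the binding proteins, IGFBP6 was closest to FMOD (0.95), the collagen-binding proteoglycan fibromodulin, VASN (0.92) and ADAMTSL5 (0.91). IGFBP5 was closest to the clock repressor NR1D1 (0.91), EMP1 (0.90) and AEBP1 (0.89), a collagen-binding protein. IGFBP3 was closest to the chemerin receptor CMKLR1 (0.95), the extracellular superoxide dismutase SOD3 (0.93) and MAOB (0.93). IGFBP4 was closest to SERPINB8 (0.95), KCNK3 (0.94) and ADD2 (0.94). IGFBP2 was closest to ADRA2B (0.93), the locus of POLDIP3 and CYB5R3 (0.91) and GCLC (0.91), which starts glutathione synthesis. IGFBP7 was closest to the zinc transporter SLC39A2 (0.94), the GAB2 locus (0.92) and MFRP (0.91).

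Other genes of the pathway came from 5 lists with 63 genes, of which 60 were found and 57 tested. In edgeR, 3 had P under 0.05, 2 higher and 1 lower in the rpFSH group, or 5.26% beside 4.73% of all loci, and none had an adjusted p under 0.05. Their median log2 change was 0.06, beside -0.01 over all loci. Without the 2 control pigs high in ciliated markers 6 of the 57 had P under 0.05, beside 6.82% of all loci, namely these 3 and PTPN11, RHEB and MAP2K1, which were higher in the rpFSH group. Without the 3 pigs high in luteal markers 2 had it, SHC1 and AKT2, beside 3.14%. PIK3R2, AKT1 and TSC1 were not matched, and 9 of the loci found hold more than 1 gene.

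Of the other carriers, IGFBP proteases and their inhibitors, 1 of 9 tested passed, and it was lower. This was IGFBP1, the carrier that insulin represses in liver. Its mean FPKM was 0.107 over all pigs, 0.214 among controls and 0.0001 among rpFSH pigs. It thus reached the limit of 0.1 through the controls alone, and a call of it could only be lower. Its counts were 19, 5, 55, 0 and 0 in the control pigs and 0 in all rpFSH pigs, so the rpFSH mean was at least 5.58-fold lower when its floor of 3 counts per library was used (P under 0.05 in edgeR, adjusted p = 0.981). That bound falls to 2.04-fold without control 3. The exact permutation p was 0.167, P was above 0.05 in limma, and without the 3 pigs high in luteal markers it was above 0.05 in edgeR. The locus of IGFBP1 overlaps that of IGFBP3 on the other strand. PAPPA2, which cuts IGFBP5 and IGFBP3, had 0.611 ± 0.276 FPKM among controls and 0.861 ± 0.365 among rpFSH pigs (SD, n = 5 each), with a log2 change of 0.56 ± 0.38 (SE), an edgeR P of 0.171 and an exact permutation p of 0.238. PAPPA itself had 1.58, 5.27, 1.71, 5.55 and 2.02 FPKM in the control pigs and 22.3, 4.32, 1.36, 3.30 and 1.97 in the rpFSH pigs, so that rpFSH 1 alone stood above the controls. Its log2 change was 1.08 ± 0.75 (SE), with an edgeR P of 0.176 and an exact permutation p of 0.619, and it was -0.14 without rpFSH 1.

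Of the insulin receptor family, its substrates and adaptors, 1 of 12 tested passed, and it was higher. SHC1, which couples the receptor to RAS, had 10.0, 13.4, 8.87, 9.0 and 10.4 FPKM in the control pigs and 14.3, 10.4, 13.7, 13.6 and 12.5 in the rpFSH pigs. All rpFSH pigs were above the control median. The log2 change was 0.39 ± 0.14 (SE) with an edgeR P of 0.0172, an adjusted p of 0.981 and an exact permutation p of 0.0397. GRB10, an adaptor that dampens the receptors, had a log2 change of 0.23 ± 0.12 (SE), with an edgeR P of 0.0877 and an exact permutation p of 0.135.

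Of the PI3K-AKT-mTOR-FOXO branch, 1 of 21 tested passed. AKT2, a kinase activated downstream of PI3K, had 6.41, 4.95, 6.27, 6.98 and 4.71 FPKM in the control pigs and 7.60, 8.47, 6.60, 7.24 and 8.67 in the rpFSH pigs. Control 4 alone was above the lowest rpFSH pig. AKT2 differed by a log2 change of 0.46 ± 0.16 (SE), with an edgeR P of 0.0132, an adjusted p of 0.981 and an exact permutation p of 0.0159. RPS6KB1, the S6 kinase, had a log2 change of 0.22 ± 0.13 (SE), with an edgeR P of 0.132 and an exact permutation p of 0.190. SHC1 and AKT2 kept P under 0.05 with each of the 10 pigs left out in turn.

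None of the 13 genes of the RAS-MAPK branch and neither tested IGF2 mRNA-binding protein had P under 0.05 with all pigs, in edgeR, DESeq2 or limma. In edgeR, MAP2K1 had it without control 2, with a log2 change of 0.36, and without both control pigs high in ciliated markers, with 0.44 ± 0.15 (SE) and an adjusted p of 0.695. With all pigs, the smallest edgeR P of the RAS-MAPK branch was that of the kinase MAP2K2, with a log2 change of 0.19 ± 0.16 (SE), a P of 0.263 and an exact permutation p of 0.913. ARAF followed with 0.33 ± 0.30 (SE), a P of 0.295 and an exact permutation p of 0.619. The mRNA-binding proteins were low, at 0.561 ± 0.399 and 0.602 ± 0.244 FPKM for IGF2BP2 and 1.88 ± 0.42 and 1.58 ± 0.16 FPKM for IGF2BP3 (SD, n = 5 each). Their log2 changes were 0.19 ± 0.48 and -0.18 ± 0.17 (SE), with an exact permutation p of 0.603 and 0.190. IGF2BP1 had no count in any pig.

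Within the spans of the 10 genes lay 22 other loci, 20 of them on the opposite strand and 18 unannotated, and 11 of them overlapped IGF1R. Of 19 tested in the fit over all loci, 2 had P under 0.05, MSTRG.1775 in IGF1R and the IGFBP1 locus over IGFBP3, beside 5.78% of all loci in that fit. IGF1 has a same-strand unannotated locus just past its annotated end, MSTRG.25933 at 81848217 to 81857912, which the table also names IGF1 and which was chosen after its values were seen. It had 5.37 ± 3.22 FPKM among controls and 6.80 ± 5.27 among rpFSH pigs (SD, n = 5 each). Its level followed that of IGF1 over the 10 pigs with r = 0.98 on log2 (FPKM + 1). The opposite-strand locus inside IGF1, MSTRG.25932, followed it with r = 0.95, so r alone does not tell which reads belong to IGF1. The IGF1 locus of the table may not hold all IGF1 reads, which was not tested.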

How the data were processed

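Ovary RNA of 10 gilts was analysed, 5 per group, with the groups taken from the sample titles. Per the labels, the authors used HISAT2 2.0, Bowtie 0.12.2 and StringTie 1.3.0 on Sscrofa11.1; the methods add Cutadapt and Ballgown. In 1 table the authors gave each pig an FPKM and a count for every locus. How the deposited counts were made is not given in the sources used here. Columns of the authors' own comparisons were not used.

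Counts were tested with edgeR 4.0.16 (TMM, quasi-likelihood F test, two-sided, treatment only) over the 15170 protein-coding loci whose mean FPKM reached 0.1, with Benjamini-Hochberg adjustment over all of them. The SE is the absolute log2 change over the square root of F. The alternatives were DESeq2 1.42.0, limma 3.58.1 on log2 (FPKM + 1) or (FPKM + 0.1), other size factors and filters, all 36339 loci, a replicate block, each pig left out, and 2 sets of pigs left out that were chosen after seeing the data. R 4.3.3, Python 3.11.15, numpy 2.4.6, pandas 2.3.3 and scipy 1.17.1 were used. Log2 CPM used a prior count of 2. Correlations used 100000 permutations, and sign-flip tests all 1024 flips.

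The members and lists were chosen with earlier results of these data known. Named genes are the members, their 3 closest loci, list genes with P under 0.05 or else the 2 with the smallest P in a list, and markers and loci inside members with P under 0.05; PAPPA and MSTRG.25933 were added after their values were seen. Total counts per pig limit precision as given in the report. The pigs are separate animals, so P measures the spread between pigs. On simulated data of 15170 loci, edgeR gave P under 0.05 to 90% of 200 genes changed by a log2 of 2. It gave P under 0.05 to 4.34% of the others. With all pigs, the largest edgeR log2 change of the IGF genes was smaller, 1.77 for IGFBP5, and that of IGF1R was -0.63. The 90% therefore does not tell how often changes of the size seen in the IGF genes would be found. Protein and promoter sequences, qRT-PCR and lncRNA transcripts were not analysed here.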

Additional observations from a re-analysis of the deposited data

Results flagged for a closer look

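In 4 of the 40 groups of 5 pigs examined (10 genes and 10 marker sums in both groups), 1 pig lay farther from the others than Dixon's test allows at the 95% level. Chance alone flags about 1 group in 20 if the groups are independent and normally distributed. The 40 groups share the same 10 pigs, and FPKM was not put on a log scale. The 4 flags therefore cannot be set against that rate. IGFBP6 in control 5 had 26.9 FPKM, with the next control pig at 6.94. The same pig had a smooth muscle or pericyte marker sum of 1831 FPKM, with the next control pig at 365. The luteal or steroidogenic marker sum was 3083 FPKM in control 2, where the next control pig had 71.9, and 1781 FPKM in rpFSH 1, where the next rpFSH pig had 480. The part of these tissues in the IGF values was not tested.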

How the results depend on the processing

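The number of IGF genes with P under 0.05 was 1 under most alternatives, 2 with DESeq2 and 3 without the 2 control pigs high in ciliated markers, and it ran from 0 to 2 with single pigs left out, with 0 without control 1, control 3, rpFSH 4 or rpFSH 5 and 2 without control 2 or rpFSH 2. For the pathway genes it was 3, it was 6 without those 2 control pigs, and it ran from 3 to 5 with single pigs left out, with 5 without control 2 or control 4. For the marker genes it was 7, it was 4 at a mean FPKM of at least 1, 2 with limma at either pseudocount and 0 without the 3 pigs high in luteal markers, and it ran from 5 to 12 with single pigs left out, with 12 without control 2. For other loci within the spans it was 2, it was 1 with limma, and it ran from 2 to 4 with single pigs left out, with 4 without rpFSH 1 or rpFSH 2. Correlated pairs went from 0 to 1 without control 1 or rpFSH 1, and differing neighbours in level stayed at 0. Adjusted over all loci, no IGF gene passed in any of the 22 fits. The share of all loci with P under 0.05 is not given here for the fits with single pigs left out.

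For the named genes that follow, P was above 0.05 in every fit in which the sign turned. Among other markers, 3 luteal ones (CYP11A1, SCARB1 and PTGFR) without control 2 and 3 smooth muscle ones (TAGLN, CNN1 and DES) without control 5 turned from below to above 0 with P under 0.05. IGF2 was at -0.0015 with upper-quartile factors, -0.0042 at a mean FPKM of at least 1, -0.15 and -0.22 with limma at a pseudocount of 1 and 0.1, -0.04 with all loci and -0.12 without the pigs high in luteal markers, and at -0.11, -0.12, -0.28 and -0.10 without control 1, control 2, rpFSH 4 and rpFSH 5 (from -0.28 to 0.29 with any pig left out). IGFBP3 was at -0.09, -0.16 and -0.08 without control 3, control 4 and rpFSH 1 (from -0.16 to 0.77). IGFBP6 was at 0.07 and 0.12 with limma, 0.78 without control 5 (from -0.56 to 0.78) and 0.65 without the control pigs high in ciliated markers. IGF2BP2 was at -0.05 and -0.07 without control 1 and rpFSH 3 (from -0.07 to 0.65), and ARAF at -0.0044 without rpFSH 1 (from -0.0044 to 0.54). PAPPA was at -0.14 without rpFSH 1 (from -0.14 to 1.38). Without the control pigs high in ciliated markers RSPH1 was at 0.71, KRT8 at 0.25 and KRT18 at 0.62, and those pigs were the highest in each. The cause was not tested.

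The replicate numbers of the labels do not pair the pigs. Same-numbered pigs deviated from their group means with correlations of -0.04, -0.29, -0.10, -0.23 and -0.03, and no number correlated best with its own. With the replicate number as a block in edgeR, 1 IGF gene had P under 0.05 (IGF1R, -0.56), IGF2 was at -0.15, IGFBP6 at 0.22, and the marker genes with P under 0.05 fell to 2, while 2.43% of all loci had P under 0.05. IGFBP1 rests on at most 55 counts in a pig, and its change is limited by that depth.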
